A study of Mus musculus with 2 samples.

Results

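Described here are 7 genes of the interleukin 17 (IL-17) axis, out of 33904 genes measured in mouse dorsal skin by single-cell RNA-seq. They were taken by name: the cytokines Il17a and Il17f, the receptor subunits Il17ra and Il17rc, the IL-23 receptor gene Il23r, and the readout genes Il1f9 and Nfkbiz. All 7 were found, Il1f9 under its newer symbol Il36g, to which it was matched by gene identifier. The study compared a mouse model of atopic dermatitis (AD) with its control (Ctrl). In the AD library, MC903 (calcipotriol, a vitamin D analog) in ethanol was given to the depilated back at 4.5 nmol per application every day, and in the Ctrl library the 100% ethanol vehicle alone was given. Both came from female C57BL/6J mice 7 weeks of age, had been depilated with Nair the day before treatment began, and were taken on day 10. Each group is 1 library, and the number of mice behind a library is not given, so no test was possible and the library and the treatment cannot be told apart.

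IL-17A and IL-17F are cytokines made mainly by lymphocytes of the type 17 program, which in mouse skin includes γδ T cells of the dermis. They act through a receptor built from IL-17RA and IL-17RC, which many cells share in part, and drive NF-κB and C/EBP signalling in keratinocytes (KCs) and dermal fibroblasts (dFBs), which then release neutrophil chemokines and antimicrobial proteins. IL-23 sustains the program through IL-23R. Nfkbiz encodes IκBζ, a nuclear regulator that IL-17 induces and that many of its target genes need, and Il1f9 encodes IL-36γ, an epithelial cytokine of the same inflammatory circuit.

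Il17a and Il17f are neighbours on chromosome 1 and had their highest levels in the same class of cells, so the DNA in front of both starts is shown, with that of Il23r. On the GRCm38 assembly, Il17a lies at chr1:20730905-20734496 on the plus strand and Il17f at chr1:20777146-20790617 on the minus strand, with 42649 bases and no annotated gene between them. Il23r lies at chr6:67422932-67491855 (minus strand), Il17rc at chr6:113471427-113483140 (plus), Il17ra at chr6:120463247-120487559 (plus), Il1f9 at chr2:24186476-24193568 (plus) and Nfkbiz at chr16:55811375-55838899 (minus). None of the 7 overlaps another annotated gene. The RefSeq promoter table (GRCm38.p6) held 5 of the 7 members. The 250 bases before the start are printed 5′ to 3′ in the direction of the gene, from chr1:20730655-20730904 (Il17a, plus strand), chr1:20784271-20784520 (Il17f, minus strand) and chr6:67491856-67492105 (Il23r, minus strand). The RefSeq start of Il17f lies inside the longer span that GENCODE gives the gene. Capitals mark AGGTCA, a core motif shared by many nuclear receptors, or its reverse complement.
Il17a: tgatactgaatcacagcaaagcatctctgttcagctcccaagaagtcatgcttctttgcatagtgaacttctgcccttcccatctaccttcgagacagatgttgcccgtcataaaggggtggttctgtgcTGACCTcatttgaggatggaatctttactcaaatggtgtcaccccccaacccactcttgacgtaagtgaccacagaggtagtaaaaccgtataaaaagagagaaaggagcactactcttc
Il17f: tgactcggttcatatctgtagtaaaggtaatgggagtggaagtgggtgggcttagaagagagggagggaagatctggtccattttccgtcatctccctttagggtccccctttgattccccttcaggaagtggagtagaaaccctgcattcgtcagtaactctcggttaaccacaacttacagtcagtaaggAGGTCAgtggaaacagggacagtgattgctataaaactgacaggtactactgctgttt
Il23r: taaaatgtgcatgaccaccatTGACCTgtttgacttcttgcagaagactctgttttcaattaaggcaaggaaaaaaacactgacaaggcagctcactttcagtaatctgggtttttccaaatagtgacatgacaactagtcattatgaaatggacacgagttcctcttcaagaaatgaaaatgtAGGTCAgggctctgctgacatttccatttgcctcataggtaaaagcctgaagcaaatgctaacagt
The letters stood 120 to 115 bases before the start of Il17a on the opposite strand, 58 to 53 bases before that of Il17f, and at 229 to 224 and 66 to 61 bases before that of Il23r. Among all 32851 windows of the table, 14.0% held AGGTCA on either strand. The Il1f9 window held 1 match and the Il17rc window held none. The NF-κB consensus was found in none of the 5 windows, against 3.90% of all windows. These are matches of letters and not shown to be sites.

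The Ctrl library held 12598 barcodes and the AD library 8778, of which 11399 and 8179 were kept, with medians of 7813 and 6330 UMIs (distinct transcript molecules) per cell. The libraries shared 35 barcode sequences. Each kept cell was placed in a class by marker genes that exclude the 7 members. Cells with the markers of several classes (1333 in Ctrl and 378 in AD) and cells with too few markers (517 and 1073) stood apart from the classes. The classes included 798 and 515 lymphocytes, 1940 and 371 KCs, and 5190 and 4687 dFBs. Markers held back from the gates were over 5 times higher in the class than in all others in 12 of 12 values for KCs, 9 of 10 for dFBs, 9 of 10 for lymphocytes and 4 of 8 for macrophages. Levels are in CPM, a gene's UMIs relative to all UMIs of its class on the usual CPM scale. Intervals are exact 95% intervals for counting error alone and say nothing of the spread between cells or between mice. Those of levels, ratios and shares of UMIs take each UMI as independent, so they are too narrow where few cells hold the UMIs. Ratios are log2 of AD over Ctrl.

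Il17a, which encodes the IL-17A subunit, was a lymphocyte transcript in both libraries. In Ctrl, lymphocytes held 824 of 985 Il17a UMIs (83.7%), and in AD they held 770 of 832 (92.5%). Most of the rest lay in cells with markers of several classes, with 132 UMIs in Ctrl and 57 in AD. dFBs, which serve here as a background for free RNA, had an Il17a UMI in 0.289% of 5190 Ctrl cells, never more than 1 UMI in a cell, at a median depth of 8348 UMIs. KCs had one in 0.206% of 1940 Ctrl cells, so KCs did not exceed this background.

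Among lymphocytes with a Cd3 UMI, γδ T cells were those with a UMI of Trdc (the δ chain constant region) and none of Trac (the α chain), 179 in Ctrl and 73 in AD. They were split by which of 2 marker lists had more members detected, giving 108 and 40 cells for the dermal list and 70 and 32 for the epidermal list. The dermal-list cells carried all the γδ Il17a. In Ctrl they held 637 UMIs, at 1666 CPM (1539 to 1801), and 61 of 108 cells had a UMI (56.5%, 46.6 to 66.0). In AD they held 336 UMIs, at 1975 CPM (1770 to 2198), and 23 of 40 cells had one (57.5%, 40.9 to 73.0). The share of positive cells was thus close in the libraries, with wide intervals, while the level was 0.25 higher on the log2 scale (0.05 to 0.44). Epidermal-list cells had no Il17a UMI in either library, which allows a share of positive cells of up to 4.29% in Ctrl and 9.38% in AD, at median depths of 3240 and 3288 UMIs. Over all γδ T cells the level was 1033 CPM in Ctrl against 1158 in AD, a log2 ratio of 0.17 (-0.03 to 0.36), so no difference was detectable at this depth. Without the cell holding most Il17a UMIs in each library, this ratio was -0.24 (-0.47 to -0.02), and that of the dermal-list cells was -0.14 (-0.37 to 0.08).

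**Figure D1:**
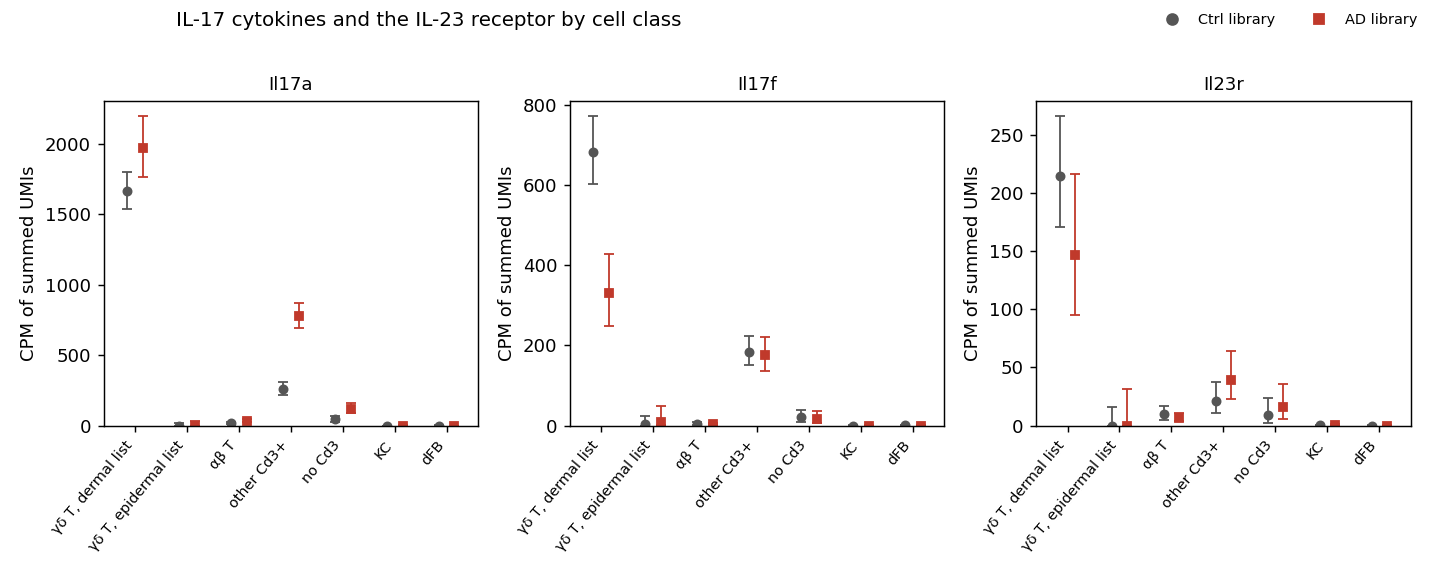
Level (CPM of summed UMIs, linear axis) of Il17a, Il17f and Il23r in lymphocyte classes, KCs and dFBs of the Ctrl library (grey circles) and the AD library (red squares), with exact 95% intervals for counting error; each point is 1 library. All 3 genes were highest in γδ T cells of the dermal list, where Il17f was at 683 CPM in Ctrl against 329 in AD, and were near 0 in KCs and dFBs.

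Other lymphocytes gave a larger part of Il17a in AD than in Ctrl. Over all lymphocytes the level was not higher in AD, at 298 CPM in Ctrl against 244. This log2 ratio was -0.29 (-0.43 to -0.15), and 0.19 with the mean of each cell's CPM. Gated γδ T cells were 179 of the 798 lymphocytes in Ctrl and 73 of the 515 in AD, so their share of cells was also lower in AD. Gated γδ T cells held 64.7% of the Il17a UMIs of Ctrl and 40.4% (37.0 to 43.8) of those of AD. The difference lay mainly in Cd3 lymphocytes that had both Trdc and Trac or neither, 188 cells in Ctrl and 90 in AD. Their Il17a was 261 CPM in Ctrl against 779 in AD, a log2 ratio of 1.58 (1.29 to 1.87). A UMI was found in 16 cells of each library, and the top cell held 29.9% of these UMIs in Ctrl and 36.7% in AD. Of these 16 cells, 9 in each library had Trdc and Trac and 7 had neither. Cd4 was found in 1 of the 16 in each library. Of the 16, 15 in Ctrl and 14 in AD had at least 2 markers of the dermal γδ list, against 29 of the other 172 cells in Ctrl and 14 of the other 74 in AD. With a wider gate of at least 2 Trdc UMIs and any Trac, the γδ share of Il17a was 62.1% (59.0 to 65.2) in Ctrl and 48.9% (45.5 to 52.4) in AD.

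αβ T cells contributed little Il17a. They were at 18.2 CPM in Ctrl against 35.3 in AD, with 5 positive cells of 311 and 5 of 266, and 58 of the 74 UMIs in AD lay in 1 cell. Lymphocytes without a Cd3 UMI were at 44.1 CPM in Ctrl against 119 in AD, from 2 and 4 positive cells. Both classes thus rested on few cells.

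**Figure D2:**
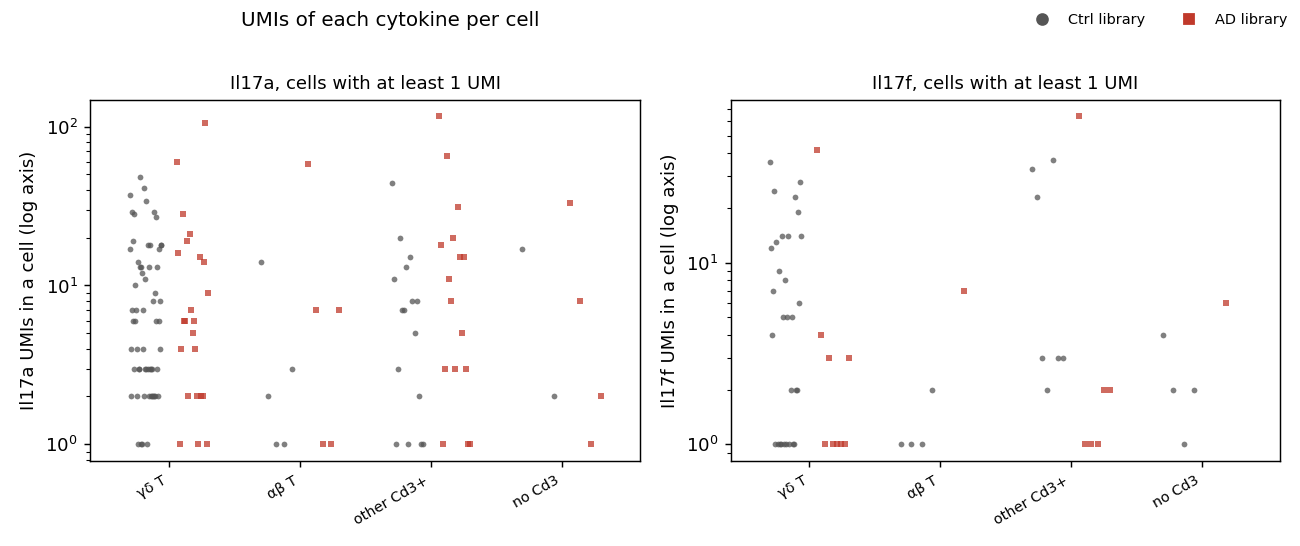
UMIs of Il17a (left) and Il17f (right) in each cell that had at least 1, on a log axis, by lymphocyte class, for the Ctrl library (grey circles) and the AD library (red squares); each point is 1 cell and the sideways position has no meaning. The highest γδ T cell held 48 Il17a UMIs in Ctrl and 105 in AD, and in AD 1 γδ T cell held 42 of the 57 Il17f UMIs.

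Il17f, which encodes the subunit that pairs with itself or with IL-17A, was lower in AD. γδ T cells held 262 UMIs in Ctrl (425 CPM) and 57 in AD (196 CPM), which gave a log2 ratio of -1.11 (-1.55 to -0.69). The UMIs lay almost wholly in dermal-list cells, with 261 in Ctrl and 56 in AD. There, 29 of 108 Ctrl cells had a UMI (26.9%, 18.8 to 36.2) and 8 of 40 AD cells had one (interval 9.05% to 35.6%), so the shares of positive cells overlapped in their intervals. In AD 73.7% of the γδ Il17f UMIs lay in 1 cell, and without the top cell of each library the log2 ratio was -2.80. In the Cd3 lymphocytes with Trdc and Trac or with neither, the level was 184 CPM in Ctrl against 175 in AD, and 64 of the 71 AD UMIs were again in 1 cell. Background in dFBs was 0.366 CPM in Ctrl against 0.162 in AD.

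Il17f was detected more often in γδ T cells that had Il17a than in those that had none. Of the 61 Il17a-positive dermal-list cells of Ctrl, 36.1% also had Il17f, against 14.9% of the 47 without Il17a. The AD values were 30.4% of 23 (7 cells) and 5.88% of 17, which was 1 cell, so the AD comparison rests on few cells. Depth was close in the Ctrl cells compared, with medians of 3630 and 3224 UMIs, and in the AD cells, with 4165 and 4355 UMIs.

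Il23r, which encodes the subunit that lets type 17 cells sense IL-23, was found in the same classes as Il17a. Dermal-list γδ T cells were at 214 CPM in Ctrl (171 to 266; 47 of 108 cells, 43.5%) against 147 in AD (95.1 to 217; 15 of 40 cells, 37.5%). Epidermal-list cells had no Il23r UMI in either library. αβ T cells were at 9.53 CPM in Ctrl against 6.68 in AD, and KCs had 2 and 1 UMIs in all. The log2 ratio in γδ T cells was -0.63 (-1.33 to 0.04). It was -0.74 (-1.52 to -0.03) without the top cell of each library and -0.71 (-1.42 to -0.05) with a median ratio size factor, so whether the interval includes 0 depended on these choices. Il23r was detected in 49.2% of Il17a-positive and 36.2% of Il17a-negative dermal-list cells in Ctrl, and in 47.8% and 23.5% in AD.

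The genes around these members were counted in γδ T cells by a rule of size. Of the 7 members, 5 had at least 20 UMIs over both libraries in γδ T cells; with 1 CPM added, none was at least 1 log2 unit higher and 1 (Il17f) was at least 1 unit lower in AD, against 4.77% of 5722 genes higher and 9.56% lower. Of 67 further pathway genes, 28 were measured there, with 2 higher and 4 lower, and their median was -0.01 against -0.03 for all genes tested. These shares, 7.14% and 14.3%, lie near those of all genes. Of the 10 measured genes of the induction side of the program, none was higher and 3 were lower. Among the lower genes were Ccr6, the chemokine receptor for CCL20, Il12rb1, the other chain of the IL-23 receptor, and, from the receptor list, Il17re, a receptor subunit for IL-17C. Ccr6 had 45 UMIs in Ctrl (72.9 CPM) and 1 in AD (3.45 CPM), which gave a log2 ratio of -4.40 (-9.74 to -1.85). Among Il17a-positive γδ T cells, Ccr6 was found in 23 of 61 in Ctrl and in 0 of 23 in AD, where a count of 0 allows up to 13.0%. In the Il17a-positive Cd3 lymphocytes with Trdc and Trac or with neither, it was found in 6 of 16 and 4 of 16. Il12rb1 had 29 and 2 UMIs and Il17re 24 and 1. Ccr6, Il12rb1 and Il17re each had under 20 UMIs in AD, so they passed the filter only through Ctrl, where they were high. In contrast, Rora, a nuclear receptor, was at 1268 and 1320 CPM, and Il1r1, through which IL-1β acts on these cells, at 203 and 155 CPM. The higher genes were Cebpb, a transcription factor (log2 ratio 1.61, 1.34 to 1.89), and Cxcl2, a neutrophil chemokine (4.03, 3.52 to 4.58). In the same cells 12 of 14 KC gate markers had UMIs in Ctrl and 7 of 14 in AD, with sums of 264 and 162 CPM. The fibroblast markers (12 and 9 of 12) summed to 219 and 68.9 CPM, the macrophage markers (8 and 5 of 10) to 45.4 and 44.8 CPM, and 1 of 6 neutrophil markers was detected, at 8.10 and 3.45 CPM. Their part in these values was not tested.

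The cytokines that sustain type 17 cells came from other classes. Il1b, encoding IL-1β, was at 2426 CPM in Ctrl macrophages and 4925 CPM in AD macrophages. Dendritic cells went the other way, with 2391 and 1784 CPM, and neutrophils were at 13384 CPM (5 cells) in Ctrl and 13059 CPM (44 cells) in AD. Il12b, which encodes the subunit shared by IL-12 and IL-23, was at 586 CPM in the 34 dendritic cells of AD, with a UMI in 12 of them, against 10.9 CPM in the 131 of Ctrl, with a UMI in 4. In Ctrl 96 of its 149 UMIs lay in cells with too few markers and 41 in cells with markers of several classes, so the gated level leaves most of it out. Single cells held much of Il12b: 64 of these 96 UMIs, 40 of these 41, and 129 of the 305 in AD dendritic cells. Il23a, the subunit particular to IL-23, was sparse, with 59 UMIs in Ctrl and 67 in AD. In AD 26 of these lay in 3 of the 33 basophils, 24 of them in 1 cell, and 15 in KCs.

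On the receiving side, Il17ra and Il17rc differed in where they were found. Il17ra, the shared signalling chain, was detected in most classes. Il17rc, the chain that completes the receptor for IL-17A and IL-17F, had most of its UMIs in KCs and dFBs. KCs held 52.1% of all Il17rc UMIs in Ctrl and 22.2% in AD, and dFBs held 31.2% and 56.7%. Lymphocytes had 8 UMIs in Ctrl and 3 in AD. By level, dFBs were close to some smaller classes. In Ctrl dFBs were at 18 CPM, mural cells at 16.2 and neural crest cells at 11.1. In AD these classes were at 9.39, 6.59 and 8.34 CPM, and adipocytes were higher, at 35.9. Macrophages were lower, at 2.05 CPM in Ctrl and 0.545 in AD.

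**Figure D3:**
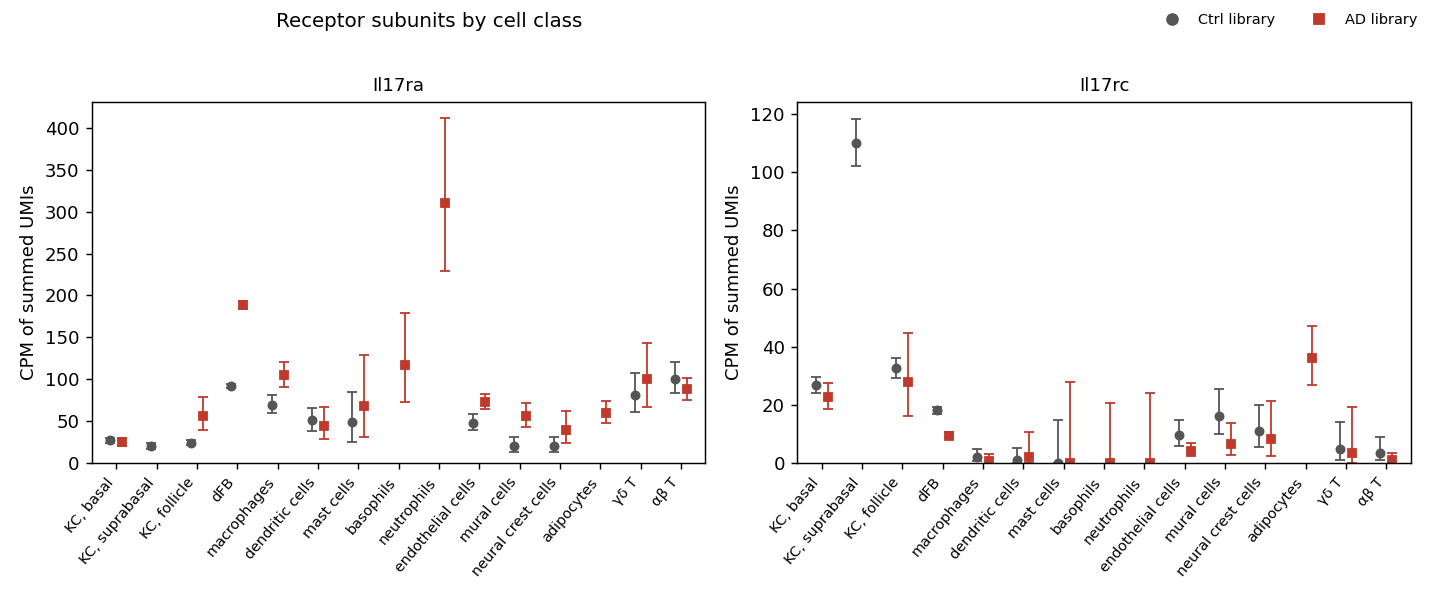
Level (CPM of summed UMIs, linear axis) of Il17ra (left) and Il17rc (right) by cell class in the Ctrl library (grey circles) and the AD library (red squares), with exact 95% intervals for counting error; classes with under 20 cells in a library are not drawn for it. In dFBs Il17ra was at 91.7 CPM in Ctrl against 189 in AD, while Il17rc was at 18 and 9.39 CPM, and Il17rc was highest in suprabasal KCs of Ctrl at 110 CPM.

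In dFBs, Il17ra was higher in AD. It was at 91.7 CPM in Ctrl (89.0 to 94.5, 4260 UMIs) against 189 in AD (184 to 193, 6969 UMIs), which gave a log2 ratio of 1.04 (0.98 to 1.09). The share of cells with a UMI was 44.6% in Ctrl and 62.4% in AD, where cells were shallower (medians of 8348 and 6987 UMIs), and it was 8.33% and 16.5% after each cell was thinned to 1000 UMIs. Il17rc went the other way in the same cells, from 836 UMIs in Ctrl (18 CPM) to 347 in AD (9.39 CPM), which gave a log2 ratio of -0.94 (-1.12 to -0.76). The share of cells with a UMI was 14.2% in Ctrl and 6.70% in AD. Both chains were found together in 388 of 5190 Ctrl cells (7.48%, 6.77 to 8.23) and in 216 of 4687 AD cells (4.61%, 4.03 to 5.25). The markers that gate dFBs were themselves lower in AD, with a sum of 10130 CPM in Ctrl against 3521 in AD; all 12 were detected in both. The 10 macrophage markers summed to 41.2 and 28.1 CPM and the 14 KC markers to 88.8 and 54.6 CPM in dFBs, and their part in the ratios was not tested.

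In KCs the layers had to be read apart, since few AD cells were gated as suprabasal. The suprabasal list was Krt1, Krt10, Krtdap and Sbsn, and the follicle list included Krt17. By the layer list with most UMIs, Ctrl had 948 basal, 315 suprabasal and 677 follicle KCs, and AD had 306, 5 and 60. In AD, basal KCs held 176 of the 1006 KC UMIs of Krt16 and 900 of the 2009 of Krt6a. Whether the lists placed upper-layer cells of AD in the basal or follicle class was not tested. Il17rc was layered in Ctrl: it was at 110 CPM in suprabasal KCs (102 to 118; 76.5% of cells), at 26.7 CPM in basal KCs (23.9 to 29.7; 21.4%) and at 32.5 CPM in follicle KCs. Over all KCs it was at 47.6 CPM in Ctrl against 26.1 in AD, a log2 ratio of -0.87 (-1.13 to -0.61). Within basal KCs the levels were 26.7 and 22.8 CPM, a log2 ratio of -0.23 (-0.56 to 0.10). This ratio had no stable direction: it was 0.22 (0.02 to 0.42) with all deposited barcodes and -0.61 (-1.24 to -0.04) without the top 5% of cells by UMIs. The 5 suprabasal AD cells held 17 UMIs, in 4 cells, at 132 CPM (77.0 to 212).

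In KCs, Il17ra was at 24.3 CPM in Ctrl against 28.0 in AD, a log2 ratio of 0.20 (-0.07 to 0.46), and at 26.7 and 24.8 CPM in basal KCs, a log2 ratio of -0.11 (-0.43 to 0.20). Over the alternatives run the ratio in all KCs ranged from 0.18 to 0.46, with intervals above 0 in 4 of them, and the basal ratio ranged from -0.11 to 0.12, turning positive in 4. In follicle KCs it was at 24.2 CPM in Ctrl against 55.9 in AD, from 34 AD UMIs, with a log2 ratio of 1.21 (0.64 to 1.73). Both receptor chains were found in 67 of 948 basal KCs in Ctrl (7.07%, 5.52 to 8.89) and in 32 of 306 in AD (10.5%, 7.26 to 14.4), with overlapping intervals. In Ctrl they were found in 81 of 315 suprabasal KCs (25.7%), which had a median of 20575 UMIs against 12488 in basal KCs.

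Il17ra was also higher in AD in macrophages, endothelial cells and mural cells. In macrophages it was at 69.4 CPM in Ctrl against 105 in AD (log2 ratio 0.59, 0.29 to 0.90), in endothelial cells at 47.7 and 72.7 CPM (0.61, 0.27 to 0.95) and in mural cells at 20.4 and 55.6 CPM (1.44, 0.74 to 2.19). Dendritic cells were at 50.9 and 44.2 CPM (-0.20, -0.97 to 0.52). Il17ra was at 311 CPM in the 44 AD neutrophils, with a UMI in 27 of them, against 5 cells and 1 UMI in Ctrl. αβ T cells were at 101 and 87.9 CPM, with a log2 ratio of -0.19 (-0.54 to 0.15). Il17rc in the 77 AD adipocytes was at 35.9 CPM, and Ctrl had 1 such cell.

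Nfkbiz was detected in all classes drawn. It had 40836 UMIs in Ctrl and 38265 in AD, and dFBs held 52.7% and 59.5% of them.

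**Figure D4:**
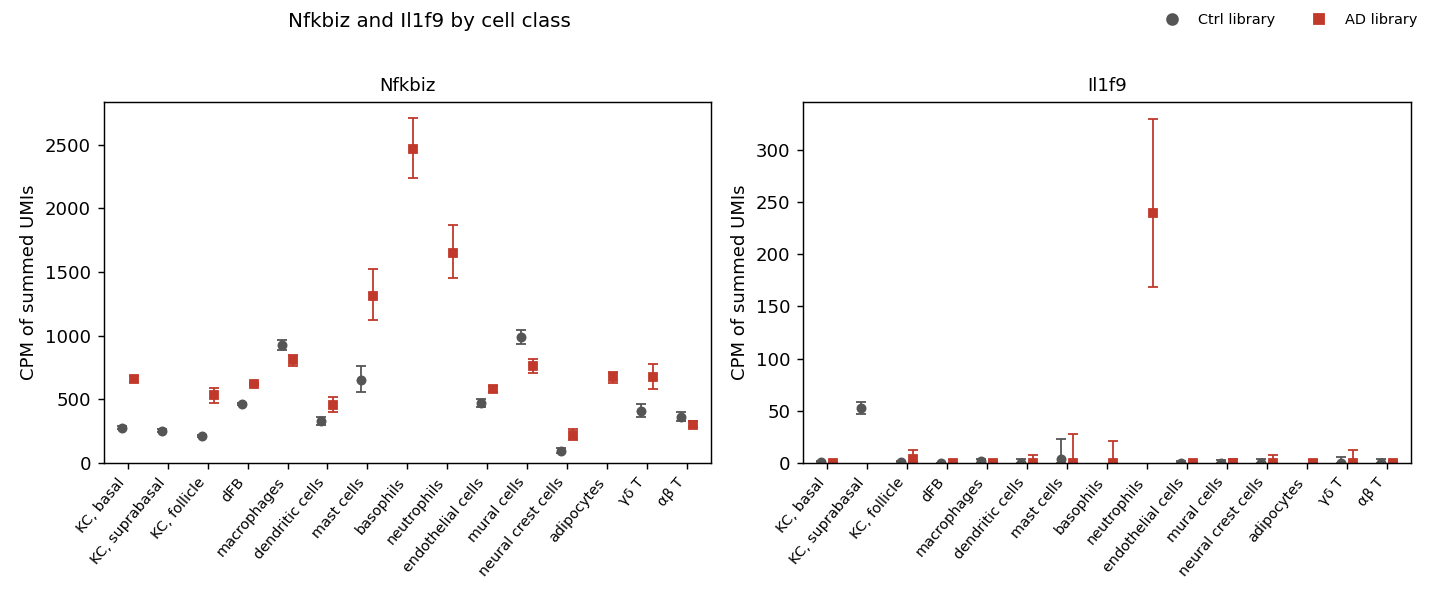
Level (CPM of summed UMIs, linear axis) of Nfkbiz (left) and Il1f9 (right) by cell class in the Ctrl library (grey circles) and the AD library (red squares), with exact 95% intervals for counting error; classes with under 20 cells in a library are not drawn for it. Nfkbiz in basal KCs was at 277 CPM in Ctrl against 655 in AD, and Il1f9 was at 52.4 CPM in suprabasal KCs of Ctrl and 239 CPM in neutrophils of AD.

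In KCs Nfkbiz was at 248 CPM in Ctrl (243 to 254) against 630 in AD (609 to 652), which gave a log2 ratio of 1.34 (1.28 to 1.40). By layer, basal KCs were at 277 and 655 CPM (1.24, 1.17 to 1.31) and follicle KCs at 212 and 529 CPM (1.32, 1.14 to 1.49). Suprabasal KCs, with 5 cells in AD, were at 250 and 256 CPM (0.04, -0.51 to 0.53). Over the 9997 genes with at least 20 UMIs in both libraries, the median log2 ratio in basal KCs was -0.16, and relative to it Nfkbiz was 1.40 higher. The share of basal KCs with a UMI was 73.0% in Ctrl and 87.3% in AD, and 24.3% and 44.2% after thinning to 1000 UMIs. The fibroblast markers in basal KCs, all 12 detected, summed to 154 CPM in Ctrl against 77.2 in AD, and the macrophage markers to 17.8 CPM (9 of 10) and 11.2 CPM (7 of 10); their part was not tested.

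In dFBs the Nfkbiz difference was smaller, from 464 CPM in Ctrl (457 to 470) to 616 CPM in AD (608 to 624), which gave a log2 ratio of 0.41 (0.38 to 0.44). γδ T cells of the dermal list were at 604 CPM in Ctrl against 1041 in AD (0.78, 0.49 to 1.07), with a UMI in 81.5% and 95.0% of cells. Epidermal-list cells were far lower, at 90.3 and 86.4 CPM, so Nfkbiz was split between the γδ T cell lists in the same direction as Il17a. αβ T cells were at 361 and 300 CPM (-0.27, -0.45 to -0.08). Macrophages, at 923 CPM in Ctrl against 804 in AD (-0.20, -0.29 to -0.10), and mural cells, at 988 and 759 CPM (-0.38, -0.51 to -0.25), were lower in AD. Mast cells were at 653 and 1309 CPM (1.00, 0.69 to 1.32). In AD the 33 basophils were at 2466 CPM, with a UMI in 30 of them, and the 44 neutrophils at 1650 CPM, with a UMI in 42.

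The main source of Il1f9 differed between the libraries. In Ctrl 370 of 441 UMIs lay in KCs, 348 of them in suprabasal KCs, at 52.4 CPM (47.0 to 58.2), with a UMI in 91 of 315 cells (28.9%, 23.9 to 34.2). Basal KCs held 14 UMIs and follicle KCs 8. In AD KCs held 4 UMIs, a log2 ratio of -4.04 (-5.92 to -2.67) over all KCs, and 2 of them were in the 5 suprabasal cells. The KC ratio and the near absence of cells gated as suprabasal in the AD library cannot be told apart. Within basal KCs 14 UMIs in Ctrl stood against 0 of 306 cells in AD, which allows a share of up to 0.980%; at the floor of 3 UMIs over the class the log2 ratio was -0.75 or lower. In AD 37 of 46 UMIs lay in neutrophils, at 239 CPM (169 to 330), with a UMI in 15 of 44 cells (34.1%, 20.5 to 49.9). In these neutrophils 5 of 14 KC markers were detected, with a sum of 38.8 CPM. The 5 Ctrl neutrophils had 4 UMIs, in 3 cells. Lymphocytes had no Il1f9 UMI in either library, and dFBs had 5 and 1.

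The other IL-36 genes shared the suprabasal place of Il1f9 in Ctrl. Il1f5, which encodes the IL-36 receptor antagonist, had 1912 of its 2263 KC UMIs in suprabasal cells, Il1f8 (IL-36β) 381 of 394 and Il1f6 (IL-36α) 189 of 192. In all AD KCs they had 12, 4 and 0 UMIs. Il1rl2, the IL-36 receptor chain, was mainly in dFBs, at 95.7 CPM in Ctrl against 80.1 in AD.

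**Figure D5:**
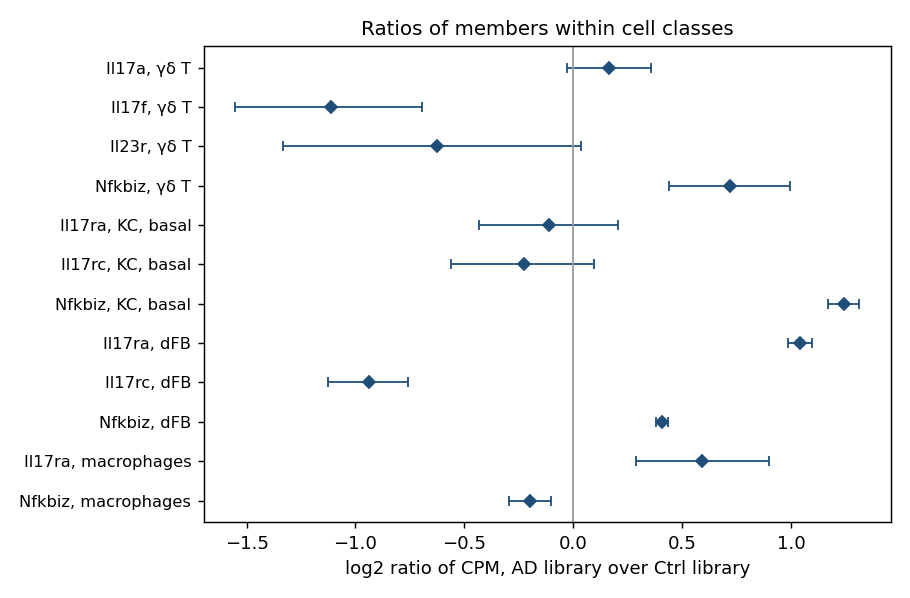
log2 ratio of CPM, AD library over Ctrl library, of members within γδ T cells, basal KCs, dFBs and macrophages (linear axis of log2 values); points are ratios from 1 library per group and bars are exact 95% intervals for counting error, with a line at 0. In dFBs Il17ra was at 1.04 and Il17rc at -0.94, and Nfkbiz was at 1.24 in basal KCs and -0.20 in macrophages.

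Genes known to lie downstream of IL-17 were counted in the receiving cells by the same rule of 1 log2 unit. The lists were chosen with earlier results of these data known. Of the listed genes, the study describes Il6, Cxcl5, Mmp3 and Mmp13 as under the control of several inflammatory pathways. Whether IL-17 acted on any of these genes here was not tested. In all KCs 4 members were measured, 1 higher (Nfkbiz) and 1 lower (Il1f9), against 5.81% of 14227 genes higher and 11.9% lower. In basal KCs 3 members were measured and 1 (Nfkbiz) was higher and none lower, against 4.68% of 12962 genes higher and 13% lower. In dFBs 4 members were measured, 1 (Il17ra) higher and none lower, against 5.73% of 16111 genes higher and 11.9% lower. Of the 67 further pathway genes, 15 of 52 measured in KCs were higher and 6 lower (median 0.23, against -0.13 over all genes tested), 12 of 47 in basal KCs were higher and 1 lower (0.22 against -0.21), and 18 of 51 in dFBs were higher, S100a8, S100a9 and Krt6a among them, and 3 lower (0.52 against -0.10).

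The KC targets were the group with most genes higher in basal KCs, 8 of 12 measured, with a median of 2.17, against 4.68% of all genes. The rule of 20 UMIs over both libraries lets a gene in through 1 library alone. Il24 (0 UMIs in Ctrl and 31 in AD), Cxcl3 (1 and 95) and S100a9 (7 and 24) passed through AD, and Ccl20 (45 and 9) through Ctrl. The count and the median thus depend in part on the filter. A high count was not particular to KCs, since the same list had 8 of 13 measured genes higher and 2 lower in dFBs. Among these 8 were S100a8 and S100a9, with 86.2% and 86.7% of their AD UMIs in neutrophils, and Krt6a, with 93.0% in KCs. The part of free RNA in these dFB values was not tested. Lcn2, an antimicrobial protein, was at 14.9 CPM in Ctrl against 255 in AD (log2 ratio 4.09, 3.87 to 4.33). The neutrophil chemokine Cxcl1 was at 18.4 and 173 CPM (3.23, 3.02 to 3.45), and Cxcl3 had 1 UMI in Ctrl and 95 in AD. Krt6a and Krt16, keratins of activated epidermis, were at 36.3 and 201 CPM and at 8.59 and 39.3 CPM. Il24, an IL-20 family cytokine, had 0 and 31 UMIs, a log2 ratio of at least 4.84 at the floor of 3 UMIs. The defensin gene Defb6 was at 95.4 and 52.7 CPM (-0.86, -1.06 to -0.65), and Defb3, Defb4 and Defb14 had fewer than 20 UMIs in these cells. S100a8 and S100a9, antimicrobial proteins that KCs and neutrophils share, were mostly in neutrophils in AD, which held 86.2% and 86.7% of the UMIs. Within basal KCs they went opposite ways, S100a8 from 118 to 23 UMIs (-0.88, -1.60 to -0.23) and S100a9 from 7 to 24 (3.25, 1.99 to 4.71). Ccl20, the CCR6 ligand, was at 25.5 CPM in Ctrl KCs and 2.11 CPM in AD KCs (-3.60, -4.61 to -2.75), but at 3.61 and 2.01 CPM within basal KCs (-0.85, -2.07 to 0.20).

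Among fibroblast targets, 6 of 8 were higher in dFBs and none lower, with a median of 1.73, against 5.73% of all genes higher and 11.9% lower. Mmp13, among the 6, had 13 UMIs in all of Ctrl and 91 in AD dFBs, so it passed the filter through AD. Saa3, an acute phase protein, was at 2.02 CPM in Ctrl against 298 in AD (log2 ratio 7.20, 6.91 to 7.51). Csf3, the granulocyte growth factor, was at 0.258 and 8.25 CPM, Il6 at 225 and 729 CPM (1.70, 1.66 to 1.73) and Cxcl1 at 398 and 1659 CPM (2.06, 2.04 to 2.08). Mmp3 was at 266 and 472 CPM (0.83, 0.79 to 0.86) and the complement gene C3 at 1388 and 1033 CPM (-0.43, -0.44 to -0.41). Among dFB genes for ligands, Il17d was lower, at 12.2 and 2.52 CPM (-2.28, -2.61 to -1.96).

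Of 12 signalling genes, 2 were higher in dFBs (Cebpb and Cebpd), 1 in basal KCs (Cebpd) and 2 in all KCs (Cebpd and Traf3ip2), and none was lower. Over all genes 5.73%, 4.68% and 5.81% were higher in these classes, and counts this small cannot be set apart from those shares. The transcription factor gene Cebpd was at 820 CPM in Ctrl dFBs and 2750 CPM in AD dFBs (1.75, 1.73 to 1.76) and at 90.7 and 646 CPM in basal KCs (2.83, 2.73 to 2.93). Cebpb, of the same family, was at 753 and 1908 CPM in dFBs (1.34, 1.32 to 1.36) and at 470 and 939 CPM in basal KCs (1.00, 0.94 to 1.06). The adaptor Traf3ip2 (Act1), which binds the receptor, was at 18.3 and 31.3 CPM in dFBs (0.77, 0.64 to 0.90) and at 17.8 and 35.0 CPM in basal KCs (0.97). The NF-κB subunit genes Nfkb1 and Rela had log2 ratios of -0.25 and 0.24 in basal KCs and of 0.32 and 0.55 in dFBs, and Traf6 was at 16.4 and 21.9 CPM in dFBs (0.42, 0.27 to 0.56). Of the feedback genes, Zc3h12a (Regnase-1, which degrades target transcripts) was at 24.2 and 80.5 CPM in dFBs (1.73, 1.63 to 1.83) and at 20.1 and 59.8 CPM in basal KCs (1.57, 1.32 to 1.83). Arid5a, which stabilizes such transcripts, was at 43.4 and 122 CPM in dFBs (1.49, 1.41 to 1.56). Tnfaip3 (A20) was at 344 and 575 CPM in dFBs (0.74, 0.71 to 0.77).

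The genes whose pattern was most like that of a member were ranked by Pearson's r of log2(CPM + 1) over 32 sums of a class in a library. The sums share libraries and differ in depth, so r is a description. Il17a was most like Il23r (r = 0.97), Cryba4 (0.96), Podnl1 (0.95), Il17f (0.95) and Actn2 (0.93), of which Cryba4, Podnl1 and Actn2 had 84 to 181 UMIs in all. Il23r had the same set, with Il17a first. For Il1f9 the list was Stfa2 (0.84), 4930438A08Rik (0.84), Scnn1a (0.83), Otop3 (0.82) and Prdx5 (0.81). Nfkbiz was most like Irak3 (0.84), Nfkbia (0.80), Ccrl2 (0.70), Sde2 (0.70) and Cxcl2 (0.70).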

How the data were processed

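One 10x 3′ library per group was used, 2 in all. For each, the authors deposited a matrix of UMI counts per gene and barcode, made with Cell Ranger on mm10 (the GRCm38 assembly) and not normalized. The matrix header names Cell Ranger 5.0.0, the submitters' processing notes name 3.1.0, and the study's methods name a version later than both. Skin was digested with collagenase and DNase, and dead cells were removed.

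Here, after the study's methods, a barcode was kept if it had between 200 and 6000 genes and if no more than 10% of its UMIs came from the 13 mitochondrial genes. The members, marker lists and pathway genes were chosen with earlier results of these data known, and the gating rule was set after the files had been seen. A cell took, of 14 classes, the one with the largest share of its markers detected, given at least 3 markers. It was called mixed when another class had 3 markers and at least 0.5 of that share, apart from mast cells with basophils and macrophages with dendritic cells. Of the kept cells, 821 in Ctrl and 1249 in AD lay at this limit or 1 marker under it. No doublet caller was run; doublets were treated only by leaving mixed cells out of the classes. UMIs were summed per class and library and divided by the UMIs of the class (CPM, computed here).

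Intervals are exact Poisson (sums), Clopper-Pearson (shares) and conditional binomial (ratios) at 95%. A count of 0 allows up to 3. Counts of genes past 1 log2 unit used genes with at least 20 UMIs over both libraries and 1 CPM added. For likeness, classes needed 20 cells and genes 50 UMIs, and marker genes were left out. Named are the 7 members in classes of at least 20 cells in both libraries, with basophils, neutrophils, adipocytes and suprabasal KCs of smaller number added after their values were seen, pathway genes as examples by role, and the 5 genes most like Il17a, Il23r, Il1f9 and Nfkbiz. Coordinates come from GENCODE M21 (GRCm38), which holds 32475 of the 33904 gene identifiers, and promoters from RefSeq. The calculation of ratios was tested on simulated data. Python 3.11.15, numpy 2.4.6, scipy 1.17.1, pandas 2.3.3 and matplotlib 3.10.9 were used. One gene of the pathway list is counted but not reported here. Alternatives are given under the dependence on processing.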

Additional observations from a re-analysis of the deposited data

Results flagged for a closer look

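Nfkbiz went in opposite directions in classes of the same libraries, with counting intervals on either side of 0. Its log2 ratio of AD over Ctrl was 1.34 in KCs, 0.41 in dFBs and 0.72 in γδ T cells, and -0.20 in macrophages. The difference between classes was not tested, since each group is 1 library. In macrophages the ratio stayed below 0 in the alternatives run, from -0.30 to -0.08, with a counting interval that reached 0.01 at the last of these, and 4 of 8 check markers of that class were over 5 times higher than in other classes.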

How the results depend on the processing

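Of 29 log2 ratios of members, 21 kept their sign in all alternatives run. With all deposited barcodes, Il17rc in KCs was -0.28 and Nfkbiz in KCs 1.21. With 1 more gate marker, Il17ra and Nfkbiz in dFBs were 1.12 and 0.50, and with mixed cells given to their top class 1.16 and 0.52. A median ratio size factor gave Nfkbiz 1.42 in KCs, and in dFBs Il17ra 1.13 and Nfkbiz 0.50. The mean of each cell's CPM gave -0.0508 for Il17a in γδ T cells, -1.21 for Il17rc in KCs and 0.44 for Nfkbiz in dFBs. Without the top 5% of cells by UMIs, Il17ra in KCs was 0.46 and Il17rc in KCs -1.20. Of the 8 ratios whose sign turned, 5 were Il17a in γδ T cells (-0.24 to 0.32), Il17ra in basal KCs (-0.11 to 0.12), Il17rc in basal KCs (-0.61 to 0.22) and in suprabasal KCs (-0.77 to 0.31), and Nfkbiz in suprabasal KCs (-0.20 to 1.01). Signs also turned for Nfkbiz in all lymphocytes (0.0167 with mixed cells, 0.0344 with the size factor), for Il17a in all lymphocytes (0.19, mean of each cell's CPM) and, without the top cell of each library, for Il17a in dermal-list γδ T cells (-0.14). That last alternative, chosen after seeing the data, gave -0.24 for Il17a and -2.80 for Il17f in γδ T cells. The γδ share of Il17a in AD was 48.9% with at least 2 Trdc UMIs (62.1% in Ctrl). Without the filter on low counts, 5753 rather than 820 genes were past 1 log2 unit in γδ T cells. The causes were not tested. No paired analysis was possible because each group is 1 library. Depth limits Il17f, Il23r and Il1f9 most, since in AD they had 158, 65 and 46 UMIs in all.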
